A study of Mus musculus with 96 samples.

Results

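Growth hormone signalling genes are described here: the growth hormone receptor gene Ghr, the transcription factor genes Stat5a and Stat5b, the feedback inhibitor genes Socs2, Socs3 and Cish, and the repressor gene Bcl6. They were chosen by name for their roles, not by measured values, and are 7 of the 56748 genes in the count table.

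RNA from liver, muscle and cortex was sequenced after 4 months of free feeding (ad libitum, AL) or of intermittent fasting (IF) with a daily fast of 16 h, in 8 mice per diet and sex. By the study's methods, the mice were male C57BL/6, began their diets at 6 weeks of age, and had PBS perfusion before dissection. They were killed in the morning, which the methods describe as the end of the fasting window. The hours given run past the scheduled end of the daily fast, and whether IF mice had eaten again is not stated. The labels give mice 1 to 16 as male and mice 25 to 40 as female, no text at hand gives the strain or age of the female mice, and sex and cohort cannot be told apart. AL and IF mice carry the same replicate numbers 1 to 8 but are different animals.

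In cortex, the library labelled AL mouse 1, a male, held Xist at 216 CPM (counts scaled to library size) and neither Ddx3y nor Uty, at 0 CPM each. The other 47 male libraries held at most 0.559 CPM of Xist and 24.5 to 65.3 CPM of Ddx3y, whereas the 48 female libraries held 40.5 to 1516 CPM of Xist and at most 0.0468 CPM of Ddx3y. That library went against its label and was left out, so male cortex has 7 AL and 8 IF mice, and none of the 7 genes was called with it put back.

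Each tissue showed the markers of its label: the 5 hepatocyte markers in male liver were led by Alb, at a mean of 33743 CPM, the 5 muscle fibre markers in male muscle by Acta1, at 43262 CPM, and the 5 neuron markers in male cortex by Snap25, at 2475 CPM.

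Growth hormone is released in pulses and binds GHR at the cell surface, where the bound kinase JAK2 phosphorylates STAT5A and STAT5B, which then enter the nucleus and switch on genes such as Igf1. SOCS2, CISH and SOCS3 are made in response and damp the signal, so their transcripts follow recent cytokine input, and SOCS3 is also a feedback inhibitor of STAT3 signalling. BCL6 represses genes at sites it can share with STAT5, and liver is known for sex-biased genes that follow the pulse pattern of the hormone.

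Ghr transcripts were most abundant in liver. Male AL mice exhibited 371 ± 77.4 CPM (mean ± SD, n = 8) in liver compared to 105 ± 14.7 CPM in muscle and 6.90 ± 0.694 CPM in cortex (n = 7), and the 3 ranges did not overlap. Stat5b had a different order, with 188 ± 15.5 CPM in muscle, 60.2 ± 6.84 CPM in liver and 25.4 ± 2.47 CPM in cortex, again with separate ranges. Stat5a followed the order of Ghr, from 26.6 ± 5.61 CPM in liver to 9.14 ± 1.20 CPM in muscle and 1.11 ± 0.229 CPM in cortex. Both STAT5 genes thus differed in the tissue where they were highest, in females as in males, although the liver and muscle ranges of Stat5a overlapped in females.

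Levels of the feedback inhibitor genes overlapped more between tissues in male AL mice. Male AL mice exhibited 20.3 ± 8.56 CPM of Socs3 in liver, above its ranges in cortex (5.92 ± 0.720 CPM) and muscle (4.33 ± 2.49 CPM), which overlapped. Socs2 was at 21.1 ± 19.96 CPM in liver, 13.2 ± 0.830 CPM in cortex and 9.84 ± 6.27 CPM in muscle, and neighbours in this order overlapped. Cish, with 27.6 ± 25.3 CPM in muscle, 17.6 ± 22.9 CPM in liver and 7.02 ± 1.20 CPM in cortex, overlapped in the same way and varied most among the mice of 1 group. In female AL mice, by contrast, Cish was first in liver, at 43.6 ± 19.8 CPM and without overlap, above cortex (6.72 ± 0.516 CPM) and muscle (5.76 ± 2.97 CPM). Socs3 had the male order in females, and Socs2 was at 68.6 ± 30.5 CPM in liver, 24.8 ± 8.04 CPM in muscle and 12.6 ± 1.42 CPM in cortex, with overlap between liver and muscle. The coefficient of variation of Cish over the 8 male AL livers was 130.4%, beside 94.6% for Socs2 and 11.4% for Stat5b. Bcl6 was at 77.5 ± 34.9 CPM in liver, 61.7 ± 12.2 CPM in muscle and 20.4 ± 2.17 CPM in cortex of male AL mice, with overlap between liver and muscle. Female AL mice ranked these tissues otherwise, with 49.6 ± 10.9 CPM of Bcl6 in muscle, 16.1 ± 2.56 CPM in cortex and 13.2 ± 6.40 CPM in liver.

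Levels of different genes can be set beside each other only per length of transcript, here as RPKM (CPM divided by gene length), which rests on the gene lengths in the count table. Ghr came first in liver, at 41 RPKM in male AL mice, followed by Bcl6 at 11.6, Stat5b at 10.9, Socs3 at 7.01, Stat5a at 3.72, Cish at 2.74 and Socs2 at 2.21 RPKM. Only the step from Ghr to Bcl6 in this order was free of overlap between the 8 mice. In female AL livers, Ghr was again first, at 41.6 RPKM, whereas Bcl6 was last, at 1.97 RPKM, and its range overlapped that of Stat5a. Stat5b came first in muscle, at 34 RPKM in male AL mice, above Ghr at 11.6 and Bcl6 at 9.21 RPKM, the latter 2 with overlap. In cortex, too, Stat5b was first, at 4.59 RPKM, and Stat5a was last, at 0.155 RPKM. The count table places Stat5b and Stat5a 8626 bases apart on chromosome 11, and how reads that fit both of these close paralogs were counted was not tested. Stat3 overlaps Stat5a in the table, and Cish and Bcl6 are each overlapped by 2 other annotated genes.

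**Figure D1:**
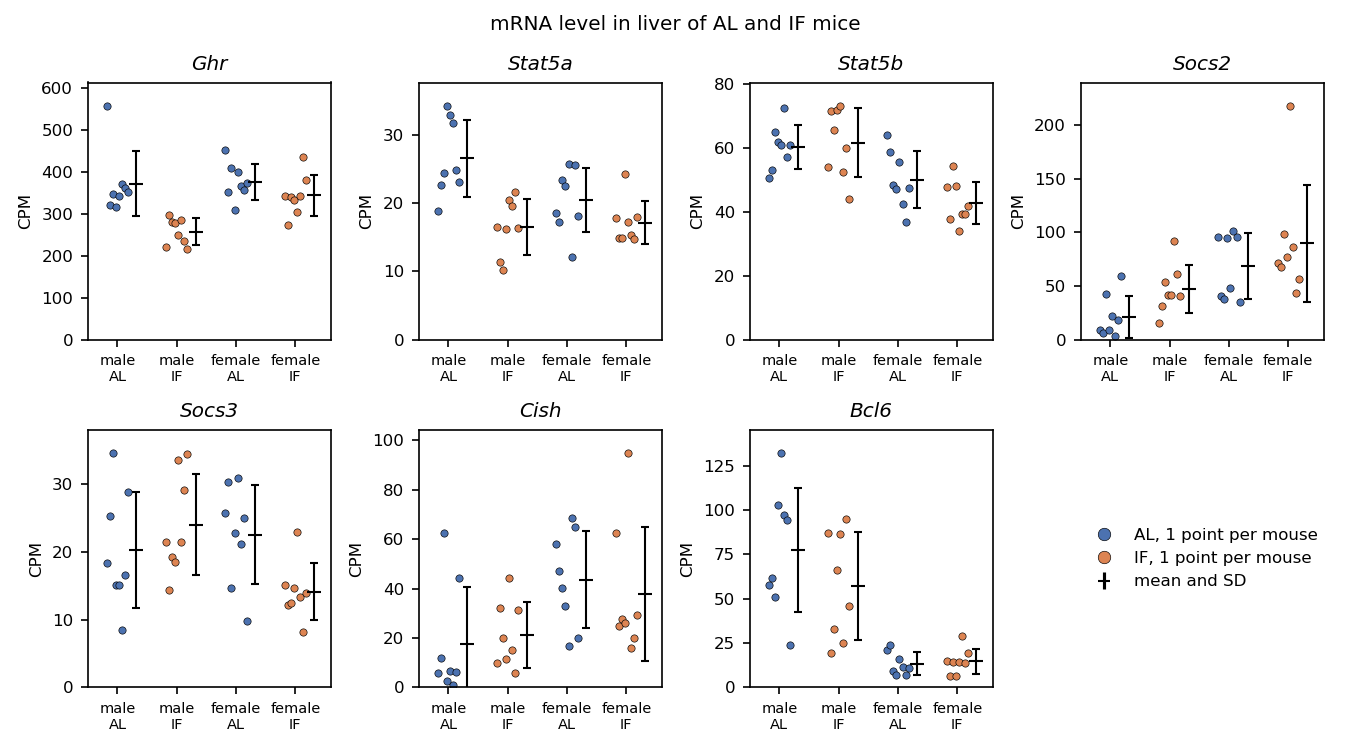
CPM of the 7 genes in each liver library of AL and IF mice, males and females apart. Each point is 1 mouse.

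The receptor transcript was lower in the liver of IF males than in AL males. Ghr ranged over 317, 350.0 and 557 CPM (lowest, median and highest of 8) in AL mice and over 217, 264 and 296 CPM in IF mice. Every IF liver lay below every AL liver, and AL mouse 1, at 557 CPM, stood above the other AL mice. The log2 difference of IF minus AL was -0.49 (SE 0.12, 95% interval -0.72 to -0.26), with an adjusted p of 0.00153 by the quasi-likelihood test of edgeR, Benjamini-Hochberg over the 16204 genes tested. A gene is called higher or lower where this adjusted p is under 0.05. Without AL mouse 1 the log2 difference of Ghr was -0.39, and Ghr was called without any 1 of the 16 libraries. The make-up of the libraries differed as well, with 24.1 to 32.4% of counts in the 10 most abundant genes of each AL liver and 18.4 to 23.4% in IF livers, and with RLE size factors in place of TMM Ghr was at -0.52 (adjusted p = 0.00110, in a range of 0.000103 to 0.0478 over the other settings).

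Stat5a, which carries the signal of the receptor to the nucleus, was lower as well. AL livers held 18.8, 24.6 and 34.2 CPM of Stat5a and IF livers 10.2, 16.4 and 21.6 CPM. The groups overlapped, because AL mouse 1, at 18.8 CPM, was the lowest of the AL mice and 3 IF mice lay above that mouse, while the other 7 AL mice were above all IF mice. Stat5a fell by 0.65 on the log2 scale (SE 0.15, adjusted p = 0.00144). Its paralog Stat5b, by contrast, held 50.5, 60.9 and 72.4 CPM in AL and 44, 62.7 and 73.1 CPM in IF livers, with a log2 difference of 0.06 (95% interval -0.15 to 0.28, adjusted p = 0.665). Over the other settings the log2 difference of Stat5b ran from 0.01 to 0.20. The difference between the changes of Stat5a and Stat5b was not tested.

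Of the 7 genes, 0 were called higher in IF male liver, against 23.5% of all genes tested, and 2 were called lower, Ghr and Stat5a, against 21.1%. Of those not called, Socs2 was higher at an unadjusted p under 0.05 by edgeR, and by DESeq2 0 of the 7 were called higher. Ghr was the 1 gene of the 7 whose AL and IF livers did not overlap, against 14.9% of all genes. The median log2 difference of the 7 genes was 0.06, equal at this precision to the 0.06 of all genes.

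The feedback inhibitor genes varied widely between male livers. Socs2, an inhibitor that growth hormone induces, was at 3.23, 13.6 and 59.5 CPM in AL and 15.6, 41.8 and 92.2 CPM in IF livers. AL mice 1, 2, 4 and 6 were below every IF mouse, whereas AL mice 3 and 8, at 42.3 and 59.5 CPM, reached the IF values. The log2 difference of Socs2 was 1.20 (SE 0.55), and it did not pass, with an adjusted p of 0.0926. Without the library of AL mouse 8 it was 1.63 with an adjusted p of 0.0217, and with both sexes in 1 fit it was 1.16 with an adjusted p of 0.0452, so the call rests on these choices. Over the other settings the log2 difference of Socs2 ran from 1.13 without mice 2 and 10 to 2.27 with an erythrocyte marker covariate. With 1 library left out it ran from 0.99 to 1.63. Over the other settings the adjusted p of Socs2 ran from 0.0452 to 0.139, and over the left-out libraries from 0.0217 to 0.176.

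Cish, whose product binds activated cytokine receptors, was at 0.884, 6.25 and 62.6 CPM in AL and 5.78, 17.4 and 44.3 CPM in IF male livers. AL mice 3 and 8 were again high, at 62.6 and 44.2 CPM, and AL mouse 6 was the lowest, as it was for Socs2 and Socs3. The log2 difference of Cish was 0.29 with a 95% interval of -1.15 to 1.73 (adjusted p = 0.777). It was 0.01 without IF mouse 13 and 0.95 without AL mouse 3, the ends of its range over the left-out libraries, and it ran from 0.12 without mice 2 and 10 to 1.06 with a replicate block over the other settings. Socs3 was at 8.40, 17.4 and 34.6 CPM in AL and 14.4, 21.4 and 34.4 CPM in IF livers, with a log2 difference of 0.28 (SE 0.25, adjusted p = 0.388) that ran from 0.15 without IF mouse 13 to 0.43 without AL mouse 3.

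Bcl6, the repressor, was at 23.6, 78.1 and 132 CPM in AL and 19.6, 56 and 94.7 CPM in IF male livers, and the groups overlapped almost fully. Its log2 difference was -0.40 (SE 0.39, adjusted p = 0.423), and it ran from -0.56 without IF mouse 13 to -0.25 without AL mouse 5. AL mice 3 and 8, which were high in Socs2 and Cish, had the lowest Bcl6 of the AL group, at 50.7 and 23.6 CPM.

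How the 7 genes vary together between mice was measured with log2 CPM after the mean of each diet group was subtracted, over 16 mice, for 84 relations in liver and muscle of both sexes. By Pearson's r and by Spearman's rho, 0 of the 84 passed after Benjamini-Hochberg adjustment (two-sided permutation tests within the diet groups). By Pearson's r, Socs2 and Cish in male muscle had the lowest p (Pearson's r 0.77, permutation p = 0.00161, adjusted p = 0.135, and Spearman's rho 0.69, permutation p = 0.00764, adjusted p = 0.321), with r 0.63 when the 2 mice farthest from the median of Socs2 were left out. Socs3 and Cish in male liver followed (Pearson's r 0.74, permutation p = 0.00366, adjusted p = 0.154, and Spearman's rho 0.61, permutation p = 0.0205, adjusted p = 0.371), but r was 0.47 without the 2 farthest mice. Stat5a and Bcl6 in male liver had the lowest p by Spearman's rho and the next lowest by Pearson's r (Pearson's r 0.64, permutation p = 0.0120, adjusted p = 0.237, and Spearman's rho 0.76, permutation p = 0.00150, adjusted p = 0.126), and r was 0.53 without the 2 farthest mice. Next by Pearson's r were Socs2 and Cish in female liver (r 0.63, permutation p = 0.0137, adjusted p = 0.237), with r 0.38 without the 2 farthest mice. Socs2 and Socs3 in female liver came after (Pearson's r 0.60, permutation p = 0.0178, adjusted p = 0.237), with r 0.52 without the 2 farthest mice. Their Spearman's rho was 0.54 and 0.50 in this order (permutation, adjusted p = 0.371 for each). For Cish and Bcl6 in male liver the sign was negative (Pearson's r -0.57, permutation p = 0.0186, adjusted p = 0.237, and Spearman's rho -0.60, permutation p = 0.0173, adjusted p = 0.371), and r was -0.62 without the 2 farthest mice. Levels of the same gene in liver and muscle of the same mouse number were compared in 14 relations, of which 0 passed. The lowest p of these by Pearson's r was that of Bcl6 in males, with r -0.63 (permutation p = 0.0128, adjusted p = 0.176), rho -0.55 (permutation p = 0.0353, adjusted p = 0.161) and r -0.35 without the 2 farthest mice. The lowest p by Spearman's rho was that of Ghr in females (Pearson's r 0.55, permutation p = 0.0321, adjusted p = 0.176, and Spearman's rho 0.65, permutation p = 0.0106, adjusted p = 0.148), with r 0.44 without the 2 farthest mice.

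Other genes of the pathway were read from fixed lists. Among 25 other kinases, STATs, SOCS genes, phosphatases and adaptors of cytokine signalling, 6 were higher and 5 lower in IF male liver, with a median log2 difference of 0.04 beside 0.06 over all genes tested. For this and the lists below in male liver, the shares over all genes are 23.5% higher and 21.1% lower. The called genes included the SOCS gene Socs6 (-0.85) and the phosphatase genes Ptpn11 (0.80) and Ptpn2 (-0.77). Of 12 other receptor genes, those of cytokines with Insr and Igf1r, 4 were higher and 2 lower (median 0.37). Among them were the leptin receptor gene Lepr (2.71), Il6ra (1.66) and the prolactin receptor gene Prlr (-1.33). Of 11 STAT5-driven targets tested, 3 were higher and 1 lower (median 0.19), with Ccnd1 at 1.54 and Pim1 at -1.40. Igf1, the classical hepatic target, singled out here after its values were seen, had a log2 difference of -0.22 (SE 0.12, adjusted p = 0.151).

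Sex-biased liver genes, many of which are known to depend on STAT5 and BCL6, were called in both directions in IF male liver. Of 16 male-biased genes, 6 were lower and 4 higher (median log2 difference -0.34), with Selenbp2 at -2.83 and Elovl3 at -2.08. Of 9 female-biased genes tested, of 19 listed, 5 were higher and 2 lower (median 1.09), with Acot3 at 4.84 and Hao2 at -2.61. Of 5 tested genes known to be raised in livers that lack GHR or STAT5, 2 were lower (median -0.50), namely Pparg (-0.63) and Cd36 (-0.50). Of 9 STAT3-driven acute phase genes, 4 were higher and 1 lower (median 0.47), although the calls of Saa1 and Saa2 were lost under several other settings.

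Clock genes and glucocorticoid-induced genes were called in the same libraries, and their part in the values of Ghr and Stat5a was not tested. Of 12 clock genes, 8 were higher and 4 lower in IF male liver (median log2 difference 1.15), with Per1 at 4.53 and Npas2 at -6.22. Of 5 tested glucocorticoid-induced genes, 5 were higher (median 1.79), with Fkbp5 at 2.46.

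Markers of other cell types differed between AL and IF in male liver as well. The summed level of 5 of 5 erythrocyte markers, led by Hba-a1 and with none at 0, was 406, 585 and 915 CPM in AL and 674, 1979.7 and 6345 CPM in IF livers (log2 difference 1.63, exact permutation p = 0.00326, adjusted p = 0.0252 over 54 sums). With the erythrocyte markers as a covariate of the edgeR fit, Ghr was at -0.47 (adjusted p = 0.0478) and Stat5a, at -0.56, was not called (adjusted p = 0.0712). Because these markers differed with diet themselves, such a fit cannot separate diet from erythrocyte marker content. Over all other settings the adjusted p ran from 0.000103 to 0.0478 for Ghr and from 0.000118 to 0.0712 for Stat5a. The 5 endothelium markers, led by Egfl7, summed to 100.1, 112 and 131 CPM in AL and 159, 165 and 286 CPM in IF livers (exact permutation, adjusted p = 0.00839, log2 difference 0.63), and the 5 fibroblast and stellate markers, led by Dcn, to 73.2, 99.9 and 118 CPM and 98, 123 and 170.4 CPM (exact permutation, adjusted p = 0.0346, log2 difference 0.38). The 6 adipocyte markers, led by Cfd, summed to 29.997, 40.4 and 52.2 CPM in AL and 13.6, 21.9 and 32.8 CPM in IF livers (exact permutation, adjusted p = 0.00839, log2 difference -0.85), and the 5 neuron markers, led by Syt1, to 4.31, 6.03 and 10.1 CPM and 7.61, 10.6 and 15.6 CPM (exact permutation, adjusted p = 0.0112, log2 difference 0.77). The leukocyte markers, led by Coro1a (0.23), macrophage markers, led by Clec4f (0.38), and muscle fibre markers, led by Acta1 (-0.23), did not pass. The hepatocyte markers, led by Alb, had a log2 difference of -0.33 (exact permutation, adjusted p = 0.0984). In bulk libraries such as these, fewer cells of a type and less RNA per cell cannot be told apart, and the part of these cell types in the values of Ghr and Stat5a was not tested beyond the erythrocyte covariate.

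Female livers gave no call among the 7 genes. By edgeR, 0 of the 7 were called higher (0% of the 15938 genes tested) and 0 lower (0%), and 0 had AL and IF livers that did not overlap (0.0251% of all genes, 4 in number). At an unadjusted p under 0.05 the number was 1 of the 7 and 919 of all genes, and by DESeq2 0 of the 7 and 8 of all genes. Ghr was at 309, 369 and 451 CPM in AL and 273, 341 and 435 CPM in IF female livers, with overlap and a log2 difference of -0.13 (95% interval -0.35 to 0.08, adjusted p = 0.882). Stat5a was at 12.2, 20.5 and 25.7 CPM in AL and 14.7, 16.3 and 24.3 CPM in IF livers (log2 difference -0.25, adjusted p = 0.850).

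Socs3 was the gene with the unadjusted p under 0.05, at 9.79, 23.9 and 30.9 CPM in AL and 8.13, 13.6 and 23 CPM in IF female livers. Of the 8 IF mice, 7 lay within the AL range, and of the 8 AL mice, 4 lay within the IF range. The log2 difference was -0.68 (SE 0.21), and it did not pass, with an adjusted p of 0.785. IF mouse 37 also had the highest female values of Socs2, 218 CPM, and of Cish, 94.8 CPM. The other IF livers held at most 98 CPM of Socs2 and 62.7 CPM of Cish. Stat5b (-0.23), Socs2 (0.39), Cish (-0.21) and Bcl6 (0.16) had log2 differences with adjusted p from 0.850 to 0.958. Without IF mouse 37, Socs2 was at 0.06 and Cish at -0.57, and without any 1 other library Socs2 reached 0.50 (without mouse 39) and Cish -0.09 (without mouse 30).

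The difference between the female and male responses was tested as the interaction of sex and diet. In liver, 1 of the 7 genes was called, against 23.7% of the 17658 genes tested. It was Socs3, whose response was lower in females by a log2 difference of -0.92 (SE 0.34, adjusted p = 0.0469). Neither sex alone gave a call for Socs3 in liver, and without the filter on low counts the adjusted p of the interaction was 0.0935, the highest over the other settings, which began at 0.0277. For Ghr the interaction was 0.39 (SE 0.16, adjusted p = 0.0714), so a difference between the fall of Ghr in males and its response in females was not shown by this test. By DESeq2, however, the interaction of Ghr was called (adjusted p = 0.0467), as it was without AL mouse 2 and IF mouse 10 (adjusted p = 0.0445), within a range of 0.0445 to 0.113 over the other settings. Stat5a had an interaction of 0.43 (SE 0.22, adjusted p = 0.153).

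Under AL, female and male livers differed in 2 of the 7 genes, against 20% of all genes tested. Bcl6 was at 23.6, 78.1 and 132 CPM in male and 6.71, 11 and 23.8 CPM in female AL livers. Only male AL mouse 8, at 23.6 CPM, lay within the female range, and the log2 difference of female minus male was -2.55 (SE 0.39, adjusted p = 1.19e-05). Socs2 was higher in female AL livers, at 34.8, 71.6 and 101 CPM beside 3.23, 13.6 and 59.5 CPM in males. The log2 difference was 1.70 (SE 0.47, adjusted p = 0.00995), and male AL mice 3 and 8 were those within the female range. Cish had a log2 difference of 1.30 that did not pass (SE 0.60, adjusted p = 0.136). Ghr was at 371 ± 77.4 CPM in males and 377 ± 42.9 CPM in females, with a 95% interval of the log2 difference from -0.20 to 0.24.

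Sex-biased liver genes were listed for the very difference between these groups, so their calls are not counted here. As a check of the labels, the male-biased gene Hsd3b5 was at 171 CPM in male and 0.492 CPM in female AL livers. Of all genes tested, 1835 were higher and 1694 lower of 17658 in female AL livers. Clock genes differed between these groups too, with 8 higher and 4 lower of 12 (median 1.38), such as Dbp at 4.55 and Arntl at -4.25. Of the cell-type markers, 4 of 6 leukocyte, 3 of 6 macrophage and 2 of 2 tested neuron markers were higher and 1 of 5 erythrocyte, 1 of 3 tested adipocyte and 1 of 5 endothelium markers lower in female AL livers. The part of these genes in the differences of Bcl6 and Socs2 was not tested.

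**Figure D2:**
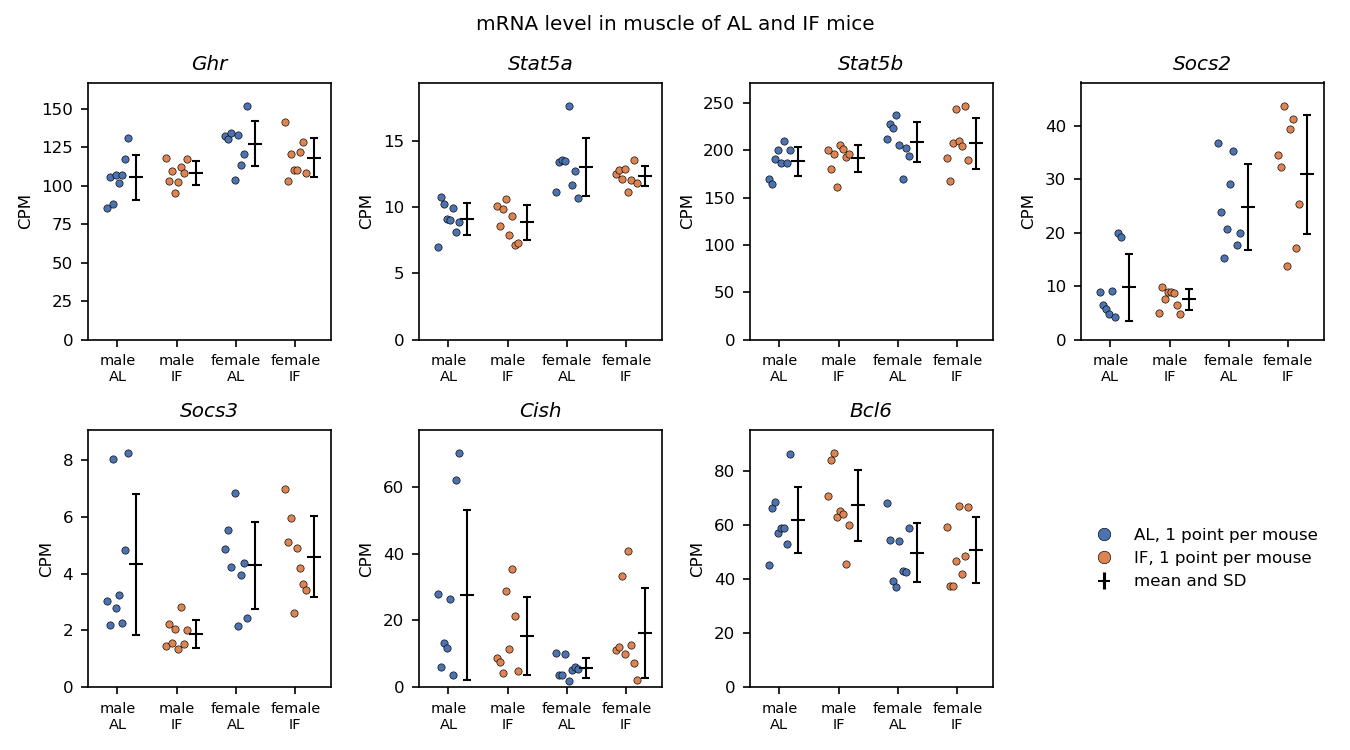
CPM of the 7 genes in each muscle library of AL and IF mice, males and females apart. Each point is 1 mouse.

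In muscle, Ghr and both STAT5 genes showed small differences in fasted males. Ghr was at 85.6, 106 and 131 CPM in AL and 95.4, 109 and 118 CPM in IF mice, with a log2 difference of 0.04 and a 95% interval of -0.11 to 0.18 (adjusted p = 0.766). Stat5b, the most abundant of the 7 per length in this tissue, had a log2 difference of 0.03 (95% interval -0.09 to 0.14, adjusted p = 0.808), and Stat5a one of -0.05 (95% interval -0.25 to 0.15, adjusted p = 0.787). The AL and IF ranges of the 3 genes overlapped. With 1 library left out, Ghr ran from 0.00 to 0.09, Stat5b from 0.00 to 0.05 and Stat5a from -0.10 to -0.01. Over the other settings Ghr ran from 0.04 to 0.09, Stat5b from 0.01 to 0.09 and Stat5a from -0.15 to -0.003.

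Socs3 was lower in the muscle of fasted males. It was at 2.21, 3.13 and 8.24 CPM in AL and 1.35, 1.79 and 2.83 CPM in IF mice. AL mice 3 and 8, at 8.05 and 8.24 CPM, were well above the rest, and IF mice 10 and 14 were the ones that reached into the AL range. Socs3 fell by 1.21 on the log2 scale (SE 0.29, adjusted p = 0.00553), from 77 to 374 counts in AL libraries and 43 to 112 counts in IF libraries. It was called without any 1 of the 16 libraries, with adjusted p up to 0.0129, but not with adipocyte markers as a covariate, where it was at -0.87 (adjusted p = 0.177, the highest over the other settings, which began at 9.27e-05).

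Socs2 and Cish did not pass in male muscle. Cish was at 3.74, 19.8 and 70.04 CPM in AL and 4.35, 10.03 and 35.3 CPM in IF mice, with AL mice 7 and 8 highest, and its log2 difference was -0.84 (SE 0.63, adjusted p = 0.374). Socs2 was at 4.24, 7.76 and 20.01 CPM in AL and 4.88, 8.15 and 9.78 CPM in IF mice, where the same 2 AL mice were highest, with a log2 difference of -0.38 (SE 0.33, adjusted p = 0.446). Both were reversed with the adipocyte covariate, Cish at 0.12 and Socs2 at 0.13. With 1 library left out, Cish ran from -1.14 without IF mouse 14 to -0.48 without AL mouse 8, and Socs2 from -0.49 without AL mouse 6 to -0.15 without AL mouse 7. Bcl6 had a log2 difference of 0.12 (SE 0.13, adjusted p = 0.531), from 0.06 without IF mouse 11 to 0.21 without AL mouse 8. Of the 7 genes, 0 were called higher in IF male muscle, against 11.5% of the 15025 genes tested, and 1 was called lower, against 11.6%. By DESeq2 and at an unadjusted p under 0.05 the same gene, Socs3, was the 1 of the 7 called. At that unadjusted p, 5309 of the 15025 genes tested passed by edgeR. No gene of the 7 had AL and IF muscles that did not overlap, a count of 0 against 4.07% of all genes.

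Adipocyte markers differed between AL and IF in the same male muscles. The 6 of 6 markers, led by Fabp4 and with none at 0, summed to 168, 337 and 756 CPM in AL and 419, 1497 and 3536 CPM in IF mice (log2 difference 2.04, exact permutation p = 0.000622, adjusted p = 0.00839 over 54 sums). These are the markers of the covariate with which Socs3 was not called. As they differed with diet themselves, that fit cannot separate diet from adipocyte marker content. The 6 leukocyte markers, led by Lyz2, summed to 39.6, 54.6 and 78.8 CPM in AL and 30.4, 37.3 and 48.1 CPM in IF muscles (exact permutation, adjusted p = 0.0101, log2 difference -0.58), and the part of these cells in the fall of Socs3 was not tested. The macrophage markers, led by C1qa, had a log2 difference of -0.37 (exact permutation, adjusted p = 0.281).

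Of the 25 other signalling genes, 7 were lower and 1 higher in IF male muscle (median log2 difference -0.16, beside 0.01 over all genes, of which 11.5% were higher and 11.6% lower), among them Socs1 at -2.74 and Jak2 at 0.36. Of 11 genes tested of the receptor list, which holds Igf1r beside cytokine receptor genes, 6 were higher (median 0.25), with Il6ra at 1.29. Of 10 STAT5-driven targets, 3 were higher (median 0.25), with Myc at 1.26. Of the 6 genes known to be raised in livers that lack GHR or STAT5, 6 were higher in this tissue (median 1.81). They include Cidea (4.52), Cidec (2.52) and Pparg (1.34), which are also expressed in adipocytes, and these 3 were not called with the adipocyte covariate, 1 of whose markers is Cidec itself. Clock genes were 5 higher and 5 lower of 12 (median 0.06), and glucocorticoid-induced genes 3 higher of 5 (median 1.27).

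In female muscle, edgeR called 0 of the 7 genes higher (0.00653% of the 15308 genes tested) and 0 lower (0%), and 0 had AL and IF muscles that did not overlap (0.0849%). At an unadjusted p under 0.05 the number was 1 of the 7 and 1644 of all genes, and by DESeq2 0 of the 7 and 83 of all genes. The 1 gene was Cish, at 1.96, 5.18 and 10.4 CPM in AL and 2.09, 11.6 and 40.8 CPM in IF mice. IF mice 35 and 37, at 33.2 and 40.8 CPM, were highest and IF mouse 40 was among the lowest, so the groups overlapped. The log2 difference of Cish was 1.46 (SE 0.51) and did not pass (adjusted p = 0.351). Ghr had a log2 difference of -0.13 (95% interval -0.28 to 0.03), Stat5a -0.10 (-0.28 to 0.08), Stat5b -0.03 (-0.19 to 0.13), Socs2 0.30 (-0.20 to 0.79), Socs3 0.08 (-0.37 to 0.52) and Bcl6 0.01 (-0.28 to 0.31). With 1 library left out, Stat5a ran from -0.14 to -0.02. None of the genes of the 9 lists was among the 1 gene called in female muscle or the 2 called in female cortex, and female liver had no called gene. Endothelium markers, led by Cdh5, were lower in IF female muscle (exact permutation, adjusted p = 0.0476, log2 difference -0.33).

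The interaction of sex and diet in muscle was called for 1 of the 7 genes, against 14.2% of the 16346 genes tested. Socs3 responded more upward in females than in males by 1.31 on the log2 scale (SE 0.38, adjusted p = 0.0192), the opposite direction to its interaction in liver. Without the filter on low counts it did not pass (adjusted p = 0.0511, the highest over the other settings, which began at 0.00524). Cish had an interaction of 2.33 (SE 0.83, adjusted p = 0.0574), which did not pass here and was called by DESeq2 (adjusted p = 0.0255, in a range of 0.0255 to 0.106).

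Female and male muscle under AL differed in 4 of the 7 genes, against 38.4% of all genes. Ghr was higher in females by 0.27 (SE 0.08, adjusted p = 0.00603), at 104, 131 and 152 CPM beside 85.6, 106 and 131 CPM in males, with overlap. Stat5a was higher by 0.51 (SE 0.10, adjusted p = 6.7e-05), at 10.7, 13.1 and 17.7 CPM beside 7.01, 9.07 and 10.7 CPM, where the ranges met at their ends. Socs2 was higher by 1.33 (SE 0.30, adjusted p = 0.000873), and male AL mice 7 and 8 were those within the female range. Cish, by contrast, was lower in females, with a log2 difference of -2.26 (SE 0.60, adjusted p = 0.00393), at 1.96, 5.18 and 10.4 CPM beside 3.74, 19.8 and 70.04 CPM in males, of whom mice 2 and 6 lay within the female range. Socs2 and Cish, both STAT5-induced inhibitors, thus differed between these groups in opposite directions in muscle, and the contrast between them was not tested. Of all 16346 genes tested, 3135 were higher and 3138 lower in female AL muscle. Of 12 clock genes, 6 were higher and 3 lower. Cell-type markers differed too, with 3 of 5 erythrocyte, 2 of 5 tested macrophage, 2 of 5 muscle fibre and 1 of 5 endothelium markers lower and 1 of 6 leukocyte markers higher in females, and the part of these genes was not tested.

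**Figure D3:**
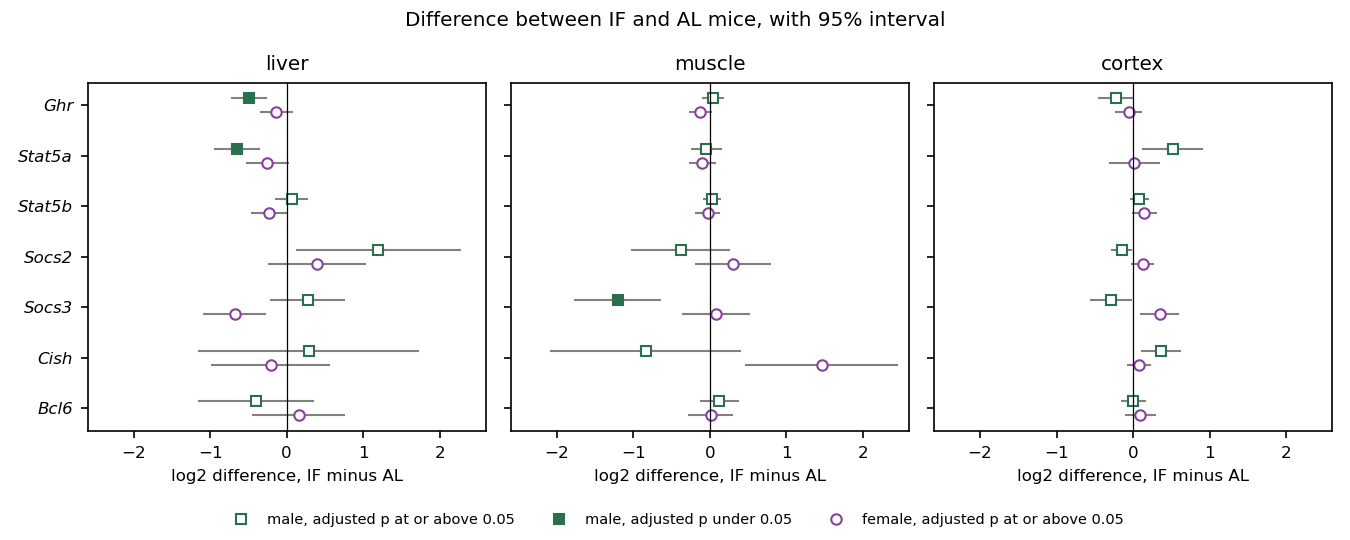
Log2 difference of IF minus AL with its 95% interval for the 7 genes in each tissue and sex, from the edgeR fits. The intervals are normal approximations.

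The difference between the liver and muscle responses was tested with mouse number as a block, taking liver and muscle libraries of 1 number as 1 animal. In males, 4 of the 7 genes were called, against 24.2% of the 21925 genes tested. Ghr responded lower in liver than in muscle by a log2 difference of -0.52 (SE 0.17, adjusted p = 0.0262), and Stat5a by -0.61 (SE 0.20, adjusted p = 0.0238). Socs2 responded higher in liver by 1.83 (SE 0.46, adjusted p = 0.00814), but without the block its adjusted p was 0.0605, in a range that began at 0.00811. Socs3 responded higher in liver by 1.41 (SE 0.28, adjusted p = 0.000598). Male mice thus exhibited a lower receptor and Stat5a response in liver and a higher response of both Socs2 and Socs3 there, relative to muscle. Within tissues, Socs3 was called lower in male muscle (-1.21) and was not called in male liver (0.28). Socs2 was called in neither tissue alone, and no marker covariate was tried in this comparison. In females, edgeR called 0 of the 7 genes and 0 of the 21534 genes tested (0%), with 2 of the 7 and 893 of all genes at an unadjusted p under 0.05. These 2 were Cish, at -1.54 (SE 0.49), and Socs3, at -0.75 (SE 0.27).

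Cortex gave no call among the 7 genes. In male cortex, edgeR called 0 of the 7 higher (3.79% of the 18462 genes tested) and 0 lower (3.43%), and 0 did not overlap (1.03%). At an unadjusted p under 0.05 the number was 2 of the 7 and 4400 of all genes, and by DESeq2 0 of the 7 and 2140 of all genes. Stat5a was at 0.766, 1.19 and 1.33 CPM in AL and 0.949, 1.46 and 2.18 CPM in IF males, on 26 to 74 counts, with a log2 difference of 0.52 (SE 0.20, adjusted p = 0.120). Cish was at 5.41, 7.15 and 8.21 CPM in AL and 6.41, 8.62 and 12 CPM in IF males, with a log2 difference of 0.36 (SE 0.13, adjusted p = 0.101). With both sexes in 1 fit Cish was called (adjusted p = 0.0314, in a range of 0.0314 to 0.253). The groups overlapped for both genes. Ghr (-0.22), Stat5b (0.08), Socs2 (-0.15), Socs3 (-0.29) and Bcl6 (0.01) had log2 differences with adjusted p from 0.215 to 0.981. Of the 25 other signalling genes, 2 were higher, Ptpn11 at 0.51 and Tyk2 at 0.43. Clock genes were called in both directions, such as Ciart at 0.95 and Arntl at -0.48. The glucocorticoid-induced genes Sgk1 (1.54), Tsc22d3 (0.93) and Fkbp5 (0.74) were higher, while Zbtb16, Per1 and Mt2 did not pass. The part of these genes in the values of the 7 was not tested. The 6 adipocyte markers summed to at most 0.729 CPM in any male cortex, although they were higher in IF (exact permutation, adjusted p = 0.00839, log2 difference 1.62).

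In female cortex, edgeR called 0 of the 7 higher (0%) and 0 lower (0.0109% of the 18403 genes tested), and 0 did not overlap (0.0435%), with 1 of the 7 and 2069 of all genes at an unadjusted p under 0.05 and 0 of the 7 and 60 of all genes by DESeq2. The 1 gene was Socs3, at 3.49, 5.62 and 6.43 CPM in AL and 4.51, 7.04 and 8.42 CPM in IF females, with overlap and a log2 difference of 0.35 (SE 0.13, adjusted p = 0.382). The interaction of sex and diet in cortex was called by edgeR for 0 of the 7, against 2.03% of the 19547 genes tested. At an unadjusted p under 0.05 the number was 2 of the 7 and 3006 of all genes, and by DESeq2 it was 1 of the 7. That 1 was Socs3, with an interaction of 0.64 (SE 0.19, adjusted p = 0.0764 by edgeR and 0.0374 by DESeq2, in a range of 0.0374 to 0.0924). Under AL, female and male cortex differed in 2 of the 7 genes, against 12.6% of all genes. Stat5a was higher in females by 0.69 (SE 0.19, adjusted p = 0.0137), at 1.14, 1.72 and 2.29 CPM, and Bcl6 was lower, with a log2 difference of -0.34 (SE 0.10, adjusted p = 0.0192), at 11.4, 16.6 and 19.4 CPM beside 16.6, 21.1 and 23.1 CPM in males. Bcl6 was thus lower in female AL mice in liver and in cortex, while in muscle its log2 difference of -0.31 did not pass (adjusted p = 0.0907). In the same cortex comparison, 1082 of all genes tested were higher and 1390 lower in females, as were 3 and 4 of 12 clock genes, with Ciart at 1.25 and Cry1 at -0.58. Of the neuron markers, 1 of 5 was higher, Nrgn at 0.38, and Ttr, singled out after its values were seen, varied widely, at 549 ± 1168 CPM in male and 33.6 ± 39.6 CPM in female AL cortex. The part of these genes in the differences of Stat5a and Bcl6 was not tested.

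The genes whose log2 CPM over the 32 liver libraries was most like that of Ghr, Stat5a, Stat5b, Socs2, Cish or Bcl6, among 17658 genes and after the mean of each of the 4 groups was subtracted, are given with Pearson's r, and no test was made of them. For Ghr they were Nadk2 (0.73) and Gsta3 (0.72), and for Stat5a Chd3 (0.67). Stat5b was closest to Amdhd1 (0.75) and Abcb11 (0.74). Cish was closest to Foxa2 (0.83) and Phlda1 (0.80), and Socs2 to E2f8 (0.80) and Slc25a30 (0.79). For Bcl6 they were Gpatch1 (0.74) and Abcg5 (0.68).

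STAT5 is known to bind the letters TTCNNNGAA, which read the same on both strands, and because the inhibitors and Bcl6 are known STAT5 targets, their promoters were searched for these letters. RefSeq promoter windows (GRCm38.p6, 250 bases before to 50 bases after the start) were at hand for 6 of the 7 genes, and Socs2 has no entry. The letters were found in 8.30% of all 32851 windows, and 0.457% held them at least 2 times and 0.0335% at least 3 times. None was found in the windows of Ghr, Stat5a and Stat5b. The window of Cish held them 2 times, with 2 bases between, that of Socs3 once, 154 bases before the start, and the windows of Bcl6 once at 1 start and 3 times at another. A match is a description of letters and not a site shown to be bound. Coordinates are of GRCm38.p6, unlike the GRCm39 of the counts, and capitals mark the letters, shown for the feedback inhibitor and repressor genes, the known targets among the 7.
Cish, chr9:107296659-107296678, + strand: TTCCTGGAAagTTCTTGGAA
Socs3, chr11:117969502-117969530, - strand, 154 bases before the start: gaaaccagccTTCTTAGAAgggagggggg
Bcl6, chr16:23988952-23988980, - strand, 118 bases before the start: agcaaattagTTCTCAGAAttccagaggc
Bcl6, chr16:23981433-23981461, - strand, 168 bases before the start: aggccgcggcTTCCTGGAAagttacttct
Bcl6, chr16:23981387-23981415, - strand, 122 bases before the start: ggcaggagtgTTCTGTGAAatccttagag
Bcl6, chr16:23981353-23981381, - strand, 88 bases before the start: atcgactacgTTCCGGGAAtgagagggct

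Across the 3 tissues of fasted males, the receptor gene Ghr and Stat5a were thus lower in liver and Socs3 was lower in muscle, although Stat5a, at -0.56 in place of -0.65, was not called with the erythrocyte covariate nor Socs3, at -0.87 in place of -1.21, with the adipocyte covariate, while Stat5b and Bcl6 were called in no comparison of diets. In females, none of the 7 was called by edgeR in any tissue, and of the differences between the sexes in response, those of Socs3 in liver and muscle were called by edgeR with the filter on low counts and not without it. DESeq2 also called those of Ghr in liver, Cish in muscle and Socs3 in cortex. Both marker covariates themselves differed with diet in males, so the fits with them cannot separate diet from marker content.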

How the data were processed

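RNA-seq libraries of liver, muscle and cortex from 32 mice were analysed, 8 per diet and sex. The authors aligned reads with Hisat2 2.0.5 to GRCm39 and counted them with featureCounts 1.5.0-p3, and the deposited values are counts per gene. Gene lengths per the file headers are an other unit, bases, and were used for RPKM. The cortex library labelled AL mouse 1 was left out because its Xist and Ddx3y were against its label, which left 95 libraries of 26097314 to 49838004 counts.

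Genes were filtered with filterByExpr (minimum count 10, total 15) and tested with the quasi-likelihood test of edgeR 4.0.16 (limma 3.58.1, R 4.3.3) after TMM normalization, in each tissue and sex apart for the diets, as an interaction of sex and diet per tissue, and with mouse number as a block for liver against muscle. P-values were adjusted by Benjamini-Hochberg over all genes tested, and a gene is called where the adjusted p is under 0.05. The 95% intervals are normal approximations, with an SE derived from the log2 difference and the test statistic. They can be narrower than the test implies, as for Socs2 in male cortex (interval -0.285 to -0.00727, unadjusted p = 0.0525 by edgeR). CPM were scaled by TMM per tissue over the libraries used of both sexes, with a prior count of 2 for log2 CPM. The tests were tested on simulated data, with 200 changed genes of which 200, 197 and 199 were recovered. The simulation gave all genes the same dispersion, changed only well-counted genes and had no mouse or tissue effects. It therefore does not show how the tests perform for genes that vary as widely as Cish and Socs2. Alternatives were RLE size factors, DESeq2 1.42.0, 2 other filters, a replicate block, both sexes in 1 fit, leaving out AL mouse 2 and IF mouse 10, each library in turn, marker covariates and no mouse block. Python 3.11.15, pandas 2.3.3, numpy 2.4.6, scipy 1.17.1 and matplotlib 3.10.9 made the summaries.

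Fixed lists held other GH and cytokine signalling genes, other cytokine receptors, STAT5-driven targets, male-biased and female-biased liver genes, genes raised in GHR- or STAT5-deficient liver, STAT3-driven acute phase genes, clock genes, glucocorticoid-induced genes and markers of hepatocyte, skeletal muscle fibre, cortical neuron, erythrocyte, adipocyte, leukocyte, macrophage, endothelium, fibroblast and stellate cells. Per1, Lifr and Cidec are each on 2 lists, Cidec as an adipocyte marker and among the genes raised in deficient liver. The list of other cytokine receptors also holds Insr and Igf1r, which are not cytokine receptor genes. At most 5 called genes per list and comparison are named, those with the largest absolute log2 difference. The 7 genes, the lists and the comparisons were set before the data were examined here, but with earlier results of these data known. Correlations, from 100000 permutations, were chosen after the data were seen.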

Additional observations from a re-analysis of the deposited data

Results flagged for a closer look

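For each of the 7 genes in each group of mice, the gap between the highest or lowest mouse and the nearest other mouse, divided by the range of the group, was compared with the 95% critical value of Dixon. Of 84 groups, 6 passed on the CPM scale. Chance alone passes about 1 in 20 groups of normally distributed values, and whether CPM are so distributed was not checked. On the log2 scale, which was used first and replaced after its result was seen, 2 passed. The highest mice were these: Ghr at 557 CPM in the liver of male AL mouse 1 and at 8.71 CPM in the cortex of male IF mouse 15, Stat5a at 24.3 CPM in the liver of female IF mouse 36 and at 17.7 CPM in the muscle of female AL mouse 29, and Socs2 at 218 CPM and Socs3 at 23.0 CPM in the liver of female IF mouse 37. What sets these mice apart was not tested.

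The response of Socs3 differed between the sexes in the test of the interaction, at -0.92 on the log2 scale (female minus male) in liver and at 1.31 in muscle, though neither was called without the filter on low counts (adjusted p = 0.0935 and 0.0511, the highest over their other settings, which began at 0.0277 and 0.00524). Between liver and muscle of males, the response differed for Ghr (-0.52, liver minus muscle), Stat5a (-0.61), Socs2 (1.83) and Socs3 (1.41), of which Socs2 was not called without the mouse block (adjusted p = 0.0605, in a range that began at 0.00811).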

How the results depend on the processing

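Over 518 values from other settings, 502 kept their direction and side of the threshold, 5 were weaker, 6 stronger and 5 reversed, and over 665 values with 1 library left out, 639 kept them, 1 was stronger and 25 were reversed. RLE size factors shifted the median of all genes by at most -0.03 (log2, male liver).

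With the erythrocyte covariate, 1 of the 7 genes and 4270 genes were called in male liver. With the adipocyte covariate, 0 of the 7 were called by edgeR in male muscle (1 at an unadjusted p under 0.05 and 1 by DESeq2 without it), and Socs2 (0.13), Cish (0.12) and the receptor gene Epor (-0.11) were reversed. By DESeq2, 8 genes were called in female liver, 83 in female muscle, 2140 in male cortex and 60 in female cortex, and of the 7, 2 were called for the interaction in liver, 2 in muscle and 1 in cortex (713 of all genes). Without the filter, 5 genes were called in female muscle and 220 for the interaction in cortex, and 0 of the 7 for those in liver and muscle by edgeR (2 and 2 by DESeq2 and 2 and 2 at an unadjusted p under 0.05, with the filter). With both sexes in 1 fit, 38 genes were called in female muscle, 2043 in male cortex (1 of the 7) and 4 in female cortex. Without mice 2 and 10, 499 genes were called in male cortex, 187 for the interaction in cortex and 2 of the 7 for that in liver. With the library labelled AL mouse 1, 295 genes were called in male cortex. Without the mouse block, 2 genes were called between the responses of female liver and muscle. At an unadjusted p under 0.05 the numbers were 919 (1 of the 7) in female liver, 5309 in male muscle, 1644 (1) in female muscle, 4400 (2) in male cortex, 2069 (1) in female cortex, 2 of the 7 for the interaction in liver, 4527 (2) in muscle, 3006 (2) in cortex, 5514 (5) for female against male under AL in liver, 5240 in cortex, and 893 (2) for female liver against muscle. Ghr under AL in liver was reversed with RLE size factors (-0.00398), by DESeq2 (-0.00397) and without mice 2 and 10 (-0.00613).

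With the replicate block, which takes AL and IF mice of 1 replicate number together, 2 of the 7 and 7087 genes were called in male liver, 389 genes in male cortex and 0 in female cortex (edgeR). The numbers do not pair samples: the IF mouse of the same number was the best match of an AL mouse in 2 of 8 male livers, 2 of 8 female livers, 0 of 8 male muscles, 2 of 8 female muscles, 0 of 7 male cortices and 1 of 8 female cortices. The cause was not tested.

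With 1 library left out, the number of genes called ran from 638 to 2059 in male cortex (638 without mouse 2, 766 without 3, 771 without 5, 878 without 11, 2059 without 12, 866 without 13 and 823 without 14), from 0 to 254 in female cortex (254 without mouse 26) and from 1 to 3 in female muscle (3 without mouse 27, 2 without 33), and of the 7 from 2 to 3 in male liver. Reversed log2 differences, of genes not called, ran from -0.0105 to 0.122 for Stat5b in male liver, -0.0582 to 0.336 for Bcl6 in female liver, -0.0552 to 0.0862 for Bcl6, -0.0678 to 0.0112 for Stat5b and -0.0367 to 0.209 for Socs3 in female muscle, -0.0391 to 0.0530 for Bcl6 in male cortex and -0.0673 to 0.0802 for Stat5a in female cortex.

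Limits: each mouse gave transcript levels once, at a time of death not given per mouse, and growth hormone pulses, STAT5 phosphorylation and protein levels were not analysed here. Socs2, Cish and Socs3 are known for fast turnover, and their spread between mice limits what 8 mice per group can resolve, as the wide intervals of Cish show. Sex and cohort cannot be told apart, clock genes differed between AL males and AL females, and whether these groups were killed at the same time could not be checked. Bulk tissue mixes cell types, and only 1 marker covariate per tissue was tried, in liver and in muscle.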
